A study of Mus musculus with 8 samples.

Results

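Lgr5, Olfm4, Ascl2, Axin2, Sox9, Lrig1, Ephb2, Cd44, Cdca7 and Smoc2 are 10 genes used as markers of the stem and progenitor cells of the intestinal crypt. They were taken as every non-control probe whose gene name on the array is one of these symbols, which gave 15 of 55681 non-control probes. All 10 genes were among the 19774 genes that passed the background filter and were fitted, out of 24772 named genes on the array. Axin2 and Lrig1 have 2 probes each, Cd44 has 4, and the other 7 genes have 1 each.

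The samples were untreated 2 cm pieces of intestine taken from 129SV mice 3 days old, whose total RNA was hybridised to 8 single-colour Agilent arrays. The 4 groups were claudin-7 KO small intestine, WT small intestine, claudin-7 KO large intestine and WT large intestine, with 2 arrays each (replicates 2 and 3). Claudin-7 (Cldn7) is a protein of epithelial cell junctions, and the series title gives the knockout as made by gene targeting, with no tissue-specific driver named. The question was what loss of claudin-7 does to these genes in each segment.

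Crypt base columnar cells sit at the bottom of the crypt, divide, and renew the epithelium. They are held there by Wnt ligands and R-spondins, secreted proteins that act on Frizzled and Lgr receptors and switch on target genes through beta-catenin, and by Notch and growth factor signals. In newborn mice the crypts are still forming, and the dividing cells lie in the regions between the villi. The 10 genes take different places in this system. Lgr5 is a receptor for R-spondins, and Axin2, Ascl2, Sox9, Ephb2 and Cd44 respond to Wnt signals. Olfm4 and Smoc2 encode secreted proteins, Lrig1 restrains ErbB growth factor receptors, and Cdca7 is a nuclear protein of dividing cells.

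Each value below is a relative signal, the processed spot signal divided by that array's own 75th percentile, so that 1 is the 75th percentile. It ranks arrays for 1 probe and does not compare probes with each other. Log2 fold changes carry their standard error after the ± sign. It comes from a spread shared by all 4 groups of 2 arrays, which limma draws toward that of all genes. It is not the spread of the compared arrays alone. The threshold for a call was an adjusted p of 0.05 (limma, Benjamini-Hochberg adjustment over all 19774 genes). The labels do not say which samples come from separate animals, so the p-values measure the spread between these samples.

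The probe sequences that the results below turn on come from the array files and are shown 5′ to 3′, with positions on mouse build mm9. The Olfm4 probe reads the gene with the widest change of the 10, and the 3 Cd44 probes are those that differed from the brightest Cd44 probe. In the last Cd44 probe the capitals mark the stop codon that ends the reading frame, so this probe lies at the end of the coding sequence.
Olfm4 A_52_P607507 (chr14:80421398-80421457, plus strand): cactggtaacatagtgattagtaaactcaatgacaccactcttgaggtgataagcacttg
Cd44 A_55_P2166488 (chr2:102677971-102678030, minus strand): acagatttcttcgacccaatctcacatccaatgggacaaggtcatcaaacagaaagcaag
Cd44 A_55_P2166486 (chr2:102672645-102672704, minus strand): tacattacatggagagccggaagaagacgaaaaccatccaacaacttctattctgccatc
Cd44 A_55_P2166501 (chr2:102654278-102654337, minus strand): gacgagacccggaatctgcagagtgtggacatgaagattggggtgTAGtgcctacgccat

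The arrays were checked first. Cldn7 had a relative signal of 4.62 and 1.92 in KO small intestine against 59.4 and 61.1 in WT small intestine, and of 4.22 and 4.45 in KO large intestine against 52.0 and 47.3 in WT large intestine. All 4 KO arrays lay below all 4 WT arrays, and whether the probe lies in the deleted stretch is not known. Some arrays stood apart in other ways. Xist, the RNA that silences an X chromosome in females, was at 0.187 and 0.185 on KO small and KO large intestine replicate 3 and at most 0.0131 on the other arrays. On the same 2 arrays the Y-linked genes Ddx3y (0.00282 and 0.00195) and Eif2s3y (0.0210 and 0.0105) were low. Elsewhere they were at least 1.63 and 6.41. Sex is not in the labels, and both arrays are KO, so this difference is not balanced between the genotypes. Alb, the serum albumin gene of liver, read 37.6 on KO large intestine replicate 2 and at most 0.0433 elsewhere. Amy2a5, a pancreatic amylase gene, read 4.15 on KO large intestine replicate 3 and 4.91 on WT large intestine replicate 2, and at most 0.0688 elsewhere. The 75th percentile lay between 2643 and 3572 signal units, and the 2 arrays of a group correlated at 0.980 to 0.991 across genes.

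In the small intestine of KO pups, 3 of the 10 genes fell and 1 rose. Olfm4, Lgr5 and Sox9 fell, and Lrig1 rose. By comparison 10.1% of all fitted genes passed in this comparison, 3.51% of them lower and 6.55% higher. For all 10 genes the KO and WT small intestine arrays did not overlap, with 3 genes higher and 7 lower in KO, where 59.4% of all genes did not overlap (26.8% higher, 32.6% lower). The median log2 fold change of the 10 was -0.76, against -0.10 over all genes. Without KO small and KO large intestine replicate 3, the arrays with Xist, 1 of the 10 passed in the small intestine (Olfm4), where 9 of all genes rose and 13 fell, an alternative chosen after seeing the data. The same 1 gene passed without KO large intestine replicate 3 and WT large intestine replicate 2, the arrays with Amy2a5, where 15 of all genes rose and 20 fell. In simulated data of this comparison, with 100 genes changed at each size, 3% of 2-fold changes and 72% of 4-fold changes passed. Far fewer genes were changed there than the 1989 that passed in the data. The adjusted p depends on how many genes change, so these shares do not give the power of the real comparison.

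**Figure D1:**
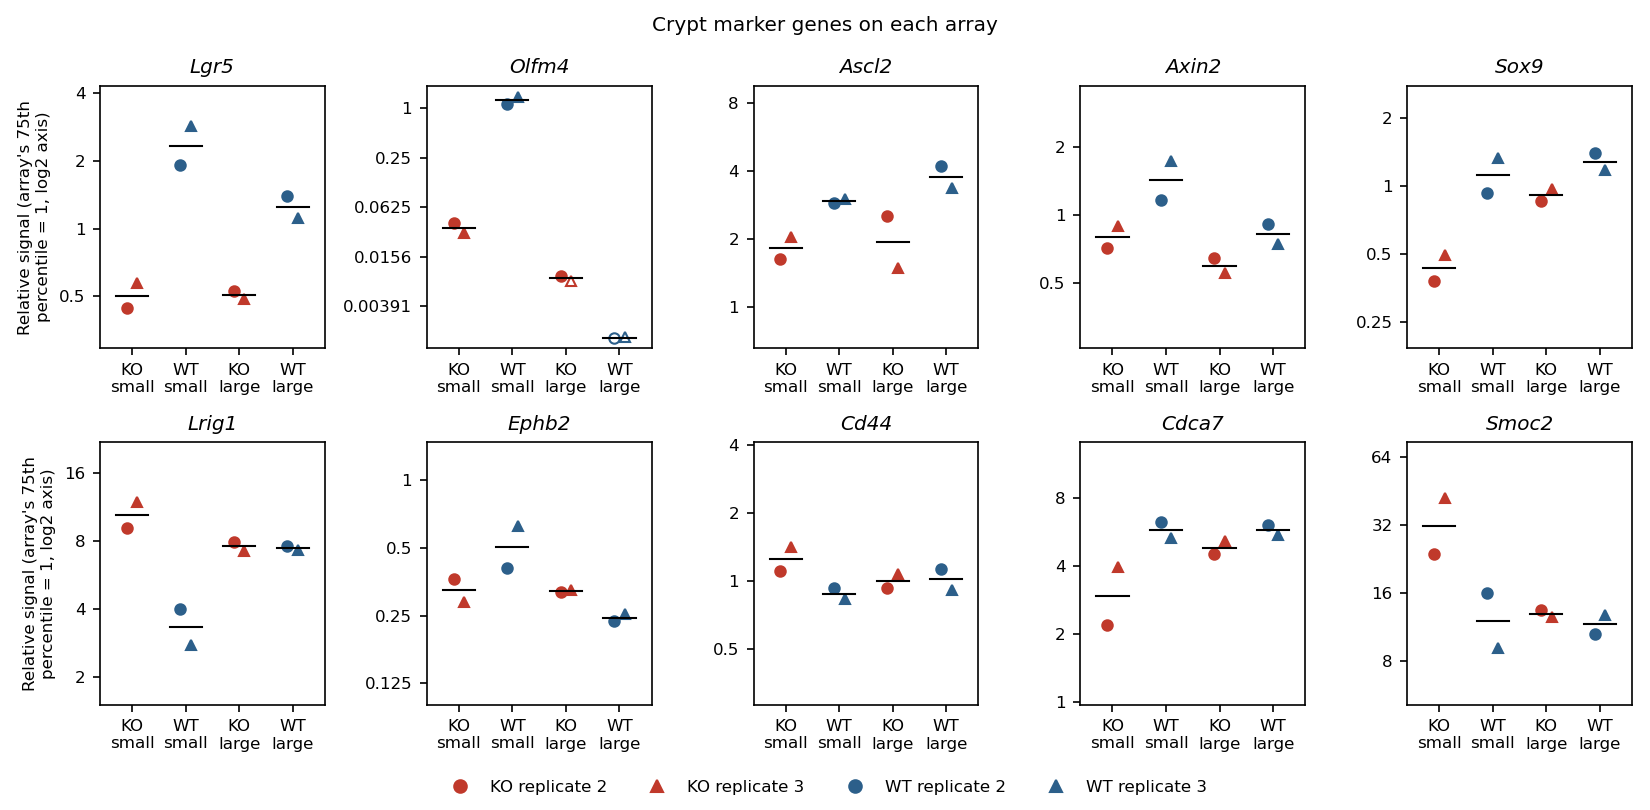
Relative signal (log2 axis, the array's 75th percentile is 1) of the brightest probe of each of the 10 genes on each array, with circles for replicate 2, triangles for replicate 3, and a bar at the group's geometric mean. Open symbols mark spots that were not well above background, which occur for Olfm4 alone. Lgr5 lies lowest in both KO groups, and Olfm4 spans the widest range.

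The plot of relative signal by array shows all values that the next paragraphs describe, and the plot of log2 fold changes sets the knockout effect in the small intestine beside that in the large intestine.

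**Figure D2:**
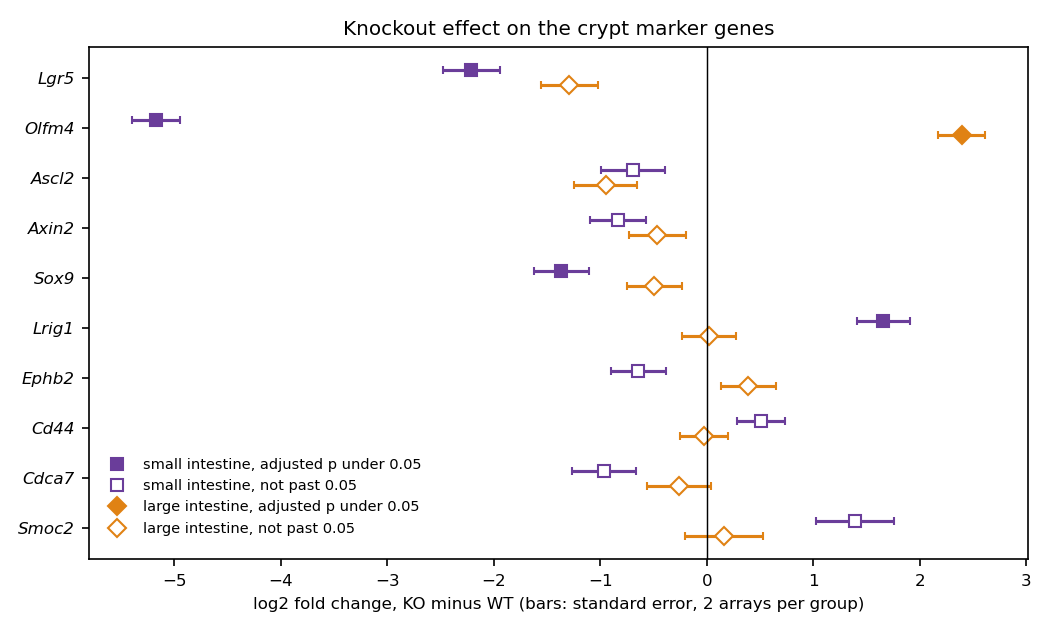
Log2 fold change, KO minus WT, of the 10 genes in the small intestine (squares) and the large intestine (diamonds). Bars give the standard error (2 arrays per group, with the spread shared by all 4 groups), and filled symbols an adjusted p under 0.05. Olfm4 lies at -5.17 in the small intestine and at 2.39 in the large intestine, while Lgr5 lies below 0 in both.

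Lgr5, the R-spondin receptor that defines crypt base columnar cells, was read by 1 probe (A_55_P2126192, chr10:114887403-114887462, minus strand). Its relative signal was 0.444 and 0.571 in KO small intestine and 1.91 and 2.85 in WT small intestine. Its large intestine values were 0.531 and 0.487 in KO and 1.39 and 1.11 in WT. All 4 KO arrays lay close together and below every WT array, whichever the segment. The share of all genes split in this way was not counted. Lgr5 fell by 2.21 ± 0.27 on the log2 scale in KO small intestine (4.64-fold, adjusted p = 0.0169). The value in the large intestine was -1.29 ± 0.27 and did not pass (adjusted p = 0.16). Over both segments together, in an additive fit of genotype and segment with 4 arrays per genotype, Lgr5 fell by 1.75 ± 0.25 (adjusted p = 0.0465), and it was the 1 gene of the 10 to pass there, where 0.485% of all genes passed (0.308% higher, 0.177% lower). In whole fragments, fewer cells that carry an RNA and less of that RNA per cell cannot be told apart, which holds for every gene below.

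The Lgr5 call in the small intestine was lost without WT small intestine replicate 3 (adjusted p = 0.0743), without KO small intestine replicate 3 (0.0592) and without either WT large intestine array (0.0526 each), with values between -2.40 and -1.93. The call over both segments was lost without any 1 of the 8 arrays (adjusted p between 0.0551 and 0.140), with values between -1.91 and -1.54. When signals were instead centred on the mean of 10 epithelial markers, Lgr5 fell by 1.93 in the small intestine (adjusted p = 0.0316) and by 1.81 over both segments (adjusted p = 0.0374). Fitted on the small intestine arrays alone, the value was -2.21 ± 0.32 and did not pass (adjusted p = 0.104).

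Olfm4, a secreted glycoprotein that is abundant in crypt base columnar cells of the mouse small intestine and known to be scarce in the mouse colon, changed most. Its relative signal was 0.0400 and 0.0302 in KO small intestine and 1.14 and 1.38 in WT small intestine. The groups lay far apart, and Olfm4 fell by 5.17 ± 0.22 (36.1-fold, adjusted p = 0.00196). It passed in the small intestine under every alternative run, with values from -5.38 to -4.39 and adjusted p from 0.000881 to 0.0449. Its large intestine signal was 0.00913 and 0.00790 in KO and 0.00162 on both WT arrays. There the probe was well above background on 1 of 2 KO arrays (replicate 2) and on neither WT array, so no fold could be bounded between these groups. The fitted difference was 2.39 ± 0.22 (adjusted p = 0.0251), and it rests on spots of which 3 of 4 were not well above background.

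That call in the large intestine was 1 gene of the 10, where 0.314% of all genes passed (0.167% higher, 0.147% lower). It was lost under normexp background correction (0.53, adjusted p = 0.344), with centring on the epithelial markers (1.98, adjusted p = 0.0503) and in the deposited normalized values (1.03, adjusted p = 0.136), and without WT large intestine replicate 2 (adjusted p = 0.197), WT large intestine replicate 3 (0.264) or KO large intestine replicate 2 (0.0785), the array with the Alb signal. The knockout effect on Olfm4 differed between the segments by 7.56 ± 0.32 (large minus small intestine, adjusted p = 0.00181), and it was the 1 gene of the 10 for which this difference passed, where 0.142% of all genes passed (0.0961% higher, 0.0455% lower). WT large intestine was already at background, so a fall like that in the small intestine could not have been read there. A value above 0 thus does not show that the knockout acts differently in the segments. With normexp correction the difference was 4.91 (adjusted p = 0.00477). Without KO large intestine replicate 3 and WT large intestine replicate 2, the arrays with pancreatic transcripts, the difference was 7.67 (adjusted p = 0.0552).

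Sox9, a transcription factor of crypt progenitors, was read by 1 probe with 10 repeat spots (A_52_P214630, chr11:112648809-112648868, plus strand), which agreed within each array at a coefficient of variation of 2.49% to 5.26%. Its relative signal was 0.378 and 0.493 in KO small intestine and 0.931 and 1.33 in WT small intestine. The large intestine values were 0.856 and 0.970 in KO and 1.40 and 1.17 in WT. KO lay below WT in both segments, and the small intestine groups were further apart. Sox9 fell by 1.37 ± 0.26 in KO small intestine (2.58-fold, adjusted p = 0.035), while the value in the large intestine was -0.49 ± 0.26 (adjusted p = 0.466). The call in the small intestine was lost without WT small intestine replicate 3 (adjusted p = 0.156), KO small intestine replicate 3 (0.105), either WT large intestine array (0.0792) or either KO large intestine array (0.0543). Centred on the epithelial markers, the value was -1.08 (adjusted p = 0.0742). Fitted on the small intestine arrays alone, it was -1.37 ± 0.31 and did not pass (adjusted p = 0.128).

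Ascl2, a transcription factor that stem cells need to persist, had a relative signal of 1.63 and 2.04 in KO small intestine and 2.90 and 3.01 in WT small intestine (chr7:150152734-150152793, minus strand). The large intestine values were 2.53 and 1.49 in KO and 4.18 and 3.35 in WT. Each KO array lay below both WT arrays of its segment, and the differences of -0.69 ± 0.30 (adjusted p = 0.164) and -0.95 ± 0.30 (adjusted p = 0.283) did not pass. Over both segments the value was -0.82 ± 0.21 (adjusted p = 0.134).

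Axin2, a negative regulator of beta-catenin that Wnt signals induce, had a relative signal of 0.716 and 0.890 in KO small intestine and 1.17 and 1.74 in WT small intestine (A_55_P2000783, chr11:108812034-108812093, plus strand). The large intestine values were 0.642 and 0.550 in KO and 0.910 and 0.741 in WT. The groups did not overlap in either segment, yet neither difference passed (-0.84 ± 0.27, adjusted p = 0.085, and -0.47 ± 0.27, adjusted p = 0.495). The other Axin2 probe (A_66_P134405, chr11:108803927-108803986), dim and not well above background on KO large intestine replicate 3, read -0.00 ± 0.44 in the small intestine and -0.52 ± 0.44 in the large intestine, so the 2 probes disagree in the small intestine.

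Ephb2, a receptor tyrosine kinase that keeps progenitors low in the crypt, had a relative signal of 0.365 and 0.287 in KO small intestine and 0.408 and 0.628 in WT small intestine (chr4:136211203-136211262, minus strand). The large intestine values were 0.317 and 0.323 in KO and 0.236 and 0.254 in WT. KO was the lower group in the small intestine and the higher one in the large intestine. Neither difference passed (-0.64 ± 0.26, adjusted p = 0.145, and 0.39 ± 0.26, adjusted p = 0.552), nor did their difference between segments (1.03 ± 0.37, adjusted p = 0.146).

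Cdca7, a Myc-responsive nuclear protein, had a relative signal of 2.20 and 3.98 in KO small intestine and 6.26 and 5.34 in WT small intestine (chr2:72324849-72324908, plus strand). The large intestine values were 4.50 and 5.17 in KO and 6.08 and 5.50 in WT. The KO arrays were the lower ones in each segment, and KO small intestine was the lowest of the 4 groups. The differences were -0.97 ± 0.30 (adjusted p = 0.082) and -0.26 ± 0.30 (adjusted p = 0.721), and neither passed.

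Lrig1, a membrane protein that lowers ErbB receptor signalling and marks a broader pool of crypt cells, went the other way. Its brightest probe (A_55_P2105100, chr6:94554523-94554582, minus strand) read 9.15 and 12.0 in KO small intestine and 4.00 and 2.77 in WT small intestine. The same probe in the large intestine read 7.95 and 7.25 in KO and 7.64 and 7.33 in WT. WT small intestine was the lowest of the 4 groups, and the large intestine groups overlapped. Lrig1 rose by 1.65 ± 0.25 in KO small intestine (3.15-fold, adjusted p = 0.0248). The second probe (A_55_P2109997, chr6:94554811-94554870) read 3.54 and 4.97 in KO small intestine and 1.76 and 1.25 in WT small intestine, a rise of 1.498 ± 0.26 when every probe was fitted on its own (38716 probes, adjusted p = 0.0394).

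The difference for Lrig1 in the large intestine was 0.02 ± 0.25 (adjusted p = 0.978), and the difference between the segments of -1.63 ± 0.35 did not pass (adjusted p = 0.0985). The small intestine call was lost without WT small intestine replicate 3 (adjusted p = 0.116), KO small intestine replicate 3 (0.106) or either WT large intestine array (0.0719), with values from 1.39 to 1.65. Centred on the epithelial markers, Lrig1 read 1.94 and did not pass either (adjusted p = 0.0502). Fitted on the small intestine arrays alone, it read 1.65 ± 0.32 and did not pass (adjusted p = 0.124).

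Smoc2, a secreted matrix-associated protein found in crypt base cells and in mesenchyme, had a relative signal of 23.8 and 42.1 in KO small intestine and 15.9 and 9.09 in WT small intestine (chr17:14541664-14541723, plus strand). The large intestine values were 13.5 and 12.5 in KO and 10.5 and 12.8 in WT. KO small intestine stood above the other 3 groups, which overlapped or lay close together. The difference in the small intestine was 1.40 ± 0.37 and did not pass (adjusted p = 0.0569). It passed under 7 of 25 alternatives, among them normexp correction (adjusted p = 0.0354) and the deposited normalized values (0.0396), and without KO small intestine replicate 2 (1.80, adjusted p = 0.0315) or WT small intestine replicate 2 (1.80, adjusted p = 0.0427). In the large intestine it was 0.16 ± 0.37 (adjusted p = 0.867).

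Other cell types of the gut wall moved with these 2 genes in the small intestine. All 8 smooth muscle markers had a log2 fold change above 0 there, with a median of 1.55, and 1 of them passed. The summed relative signal of the 8 was 458 and 565 in KO small intestine against 297 and 163 in WT small intestine. Lrig1 and Smoc2 had the same order over these 4 arrays as that sum. It ran from KO replicate 3 over KO replicate 2 and WT replicate 2 down to WT replicate 3. How many of all genes share this order was not counted. In the large intestine, where neither gene passed, the sum was 512 and 465 in KO and 499 and 543 in WT. Both WT sums lay above those of WT small intestine. Between the WT segments, large minus small intestine, Lrig1 read 1.17 ± 0.25 and Smoc2 -0.05 ± 0.37. The part of muscle or mesenchyme in the values of Lrig1 and Smoc2 was not tested.

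Enteric neuron markers behaved alike, with 6 of 8 passing higher in KO small intestine and a median of 1.99. Their sum was 41.1 and 67.0 in KO small intestine against 23.0 and 12.8 in WT small intestine. Elavl4, an RNA-binding protein of neurons, rose by 1.05 ± 0.24 (adjusted p = 0.046). Of 6 glial markers 4 rose and 1 fell, with Sox10 up by 1.81 ± 0.41 (adjusted p = 0.0444). Of 6 fibroblast markers 3 rose, among them Pdgfra (1.02 ± 0.21, adjusted p = 0.0378), and of 3 markers of interstitial cells of Cajal 1 rose. No marker in these 5 lists passed in the large intestine, where 33 genes in all rose and 29 fell.

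Epithelial markers had a smaller median shift than these lists. Of 10 epithelial markers 1 fell in KO small intestine and none rose, with a median of -0.29. Their sum was 416 and 361 in KO small intestine and 354 and 437 in WT small intestine, and these ranges overlap. Epcam, an epithelial adhesion protein, was at 23.2 and 19.2 in KO small intestine against 21.2 and 32.0 in WT small intestine (-0.30 ± 0.35, adjusted p = 0.603). In the large intestine all 10 lay above 0 with a median of 0.37, and none passed. Their sum there was 502 and 606 in KO and 437 and 434 in WT. The part of epithelial content in the values of the 10 genes was not tested. Of 8 markers of mature enterocytes none passed in the small intestine, with a median of -0.03. Of 8 leukocyte markers 1 rose and 2 fell, and of 6 endothelial markers none passed.

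**Figure D3:**
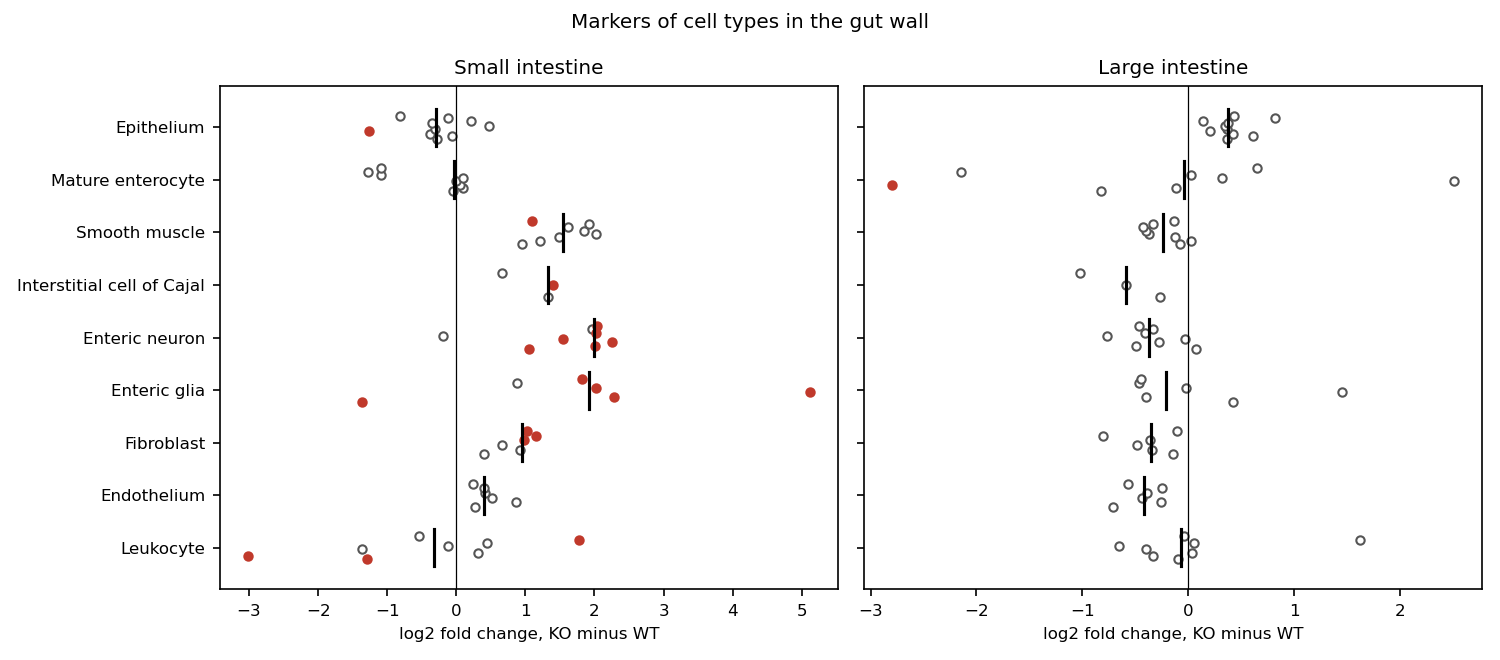
Log2 fold change, KO minus WT, of marker genes of 9 cell types of the gut wall in the small intestine (left) and the large intestine (right), with 1 point per gene, red filled points for an adjusted p under 0.05 and a bar at the median of the list; the axes of the panels differ in range. In the small intestine the smooth muscle, neuron, glia and Cajal cell medians lie between 1.33 and 1.99 and the epithelial median at -0.29.

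The plot of marker genes by cell type shows these lists side by side, and 1 of the marker genes drawn passed in the large intestine, a gene of mature enterocytes.

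Cd44, a hyaluronan receptor whose transcripts are spliced into many forms in the crypt, gave different answers by probe. The brightest probe (A_55_P2064043, chr2:102651398-102651457, minus strand, transcript position 5494) lies far downstream in the transcript. It read 1.10 and 1.41 in KO small intestine and 0.928 and 0.828 in WT small intestine, and 0.929 and 1.07 in KO large intestine and 1.14 and 0.914 in WT large intestine. The groups overlapped in the large intestine and lay close together in the small intestine, with differences of 0.51 ± 0.22 (adjusted p = 0.174) and -0.03 ± 0.22 (adjusted p = 0.966).

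The other 3 probes were looked at after the values were seen. At transcript position 1777, probe A_55_P2166488 read 0.0365 and 0.0457 in KO small intestine and 0.0204 and 0.0148 in WT small intestine, and 0.0396 and 0.0475 in KO large intestine and 0.0197 and 0.0210 in WT large intestine. At position 1965, A_55_P2166486 read 0.0255 and 0.0657 in KO small intestine and 0.0124 on both WT small intestine arrays, and 0.0425 and 0.0687 in KO large intestine and 0.0141 and 0.0143 in WT large intestine. At position 2614, A_55_P2166501 read 0.677 and 1.23 in KO small intestine and 0.334 and 0.294 in WT small intestine, and 0.638 and 1.22 in KO large intestine and 0.405 and 0.379 in WT large intestine. All 3 probes were well above background on all 8 arrays. On each, every KO array lay above every WT array, and KO replicate 3 was the highest in both segments. The share of all probes split in this way was not counted. Within a segment, KO and WT did not overlap for 59.4% of all genes in the small intestine and 55.1% in the large intestine.

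With every probe fitted on its own, the probe at position 1777 rose by 1.23 ± 0.25 in KO small intestine (adjusted p = 0.0475, where 4.35% of all probes passed, 2.31% higher and 2.04% lower) and by 1.16 ± 0.17 over both segments (adjusted p = 0.0478, where 0.478% passed, 0.204% higher and 0.274% lower). Its large intestine value of 1.09 ± 0.25 did not pass (adjusted p = 0.177). The probe at position 1965 read 1.72 ± 0.45 in the small intestine (adjusted p = 0.0694) and 1.93 ± 0.45 in the large intestine (adjusted p = 0.182). The probe at position 2614, across the stop codon, read 1.54 ± 0.39 (adjusted p = 0.066) and 1.17 ± 0.39 (adjusted p = 0.274). Cd44 thus had values above 1 in both segments on the 3 upstream probes and values near 0 to 0.51 on the downstream one.

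The array file lists the probes at positions 1777 and 1965 for 2 of the 3 Cd44 transcripts it names, and the other 2 probes for all 3. The call at position 1777 was lost in the small intestine without KO small intestine replicate 3 (adjusted p = 0.184), WT small intestine replicate 3 (0.189), either KO large intestine array (0.0705) or either WT large intestine array (0.0984), and over both segments without any 1 array (0.0566 to 0.139).

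**Figure D4:**
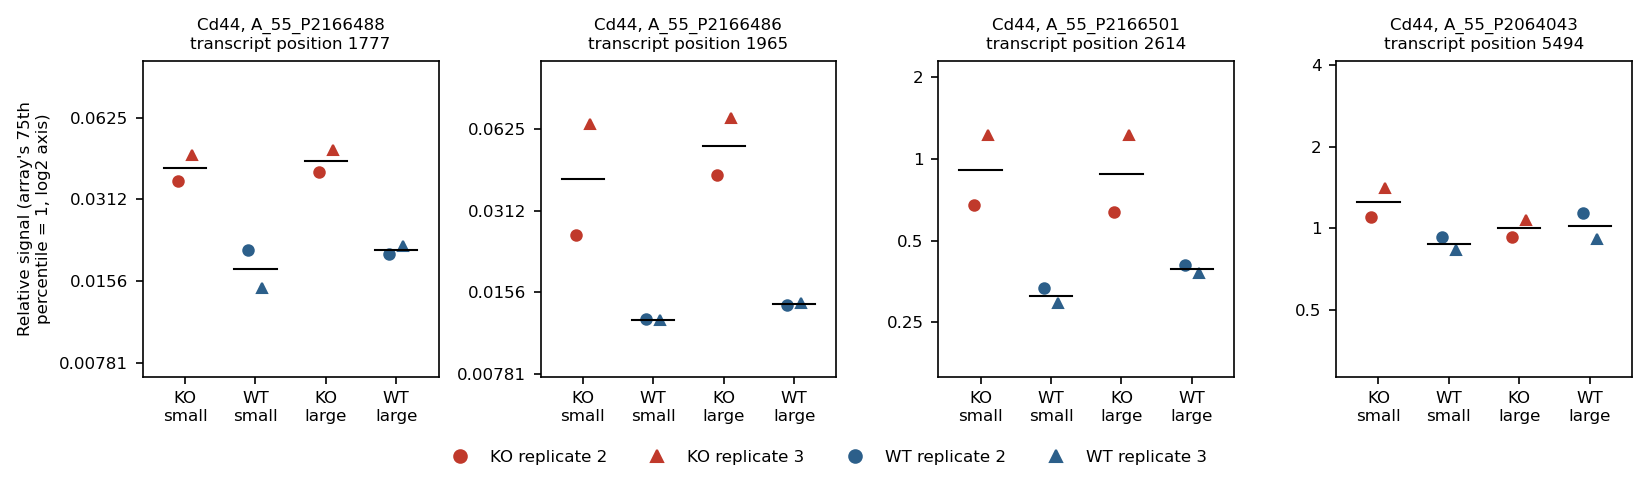
Relative signal (log2 axis) of the 4 Cd44 probes on each array, ordered by position along the transcript, with circles for replicate 2, triangles for replicate 3 and a bar at the geometric mean. In the 3 left panels all KO arrays lie above all WT arrays, while in the right panel the large intestine groups overlap.

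Of the 10 genes, 1 passed in the large intestine of KO pups, Olfm4 with a value above 0, where 0.314% of all genes passed. Its probe was well above background there on KO replicate 2 alone, so a rise was not measured. None passed lower. There 2 of the 10 genes were higher in KO with no overlap (Ephb2, and Olfm4 with signals near background), 5 were lower with no overlap (Lgr5, Ascl2, Axin2, Sox9 and Cdca7) and 3 overlapped, where 55.1% of all genes did not overlap (27.9% higher, 27.2% lower). The median of the 10 was -0.14, against 0.00 over all genes.

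The segments also differed within each genotype. In WT pups 3 of the 10 genes passed between large and small intestine, where 20.2% of all genes did (10.1% in each direction). Olfm4 fell by 9.60 ± 0.22 (adjusted p = 2.32e-05). WT large intestine was at background, so with the main scaling Olfm4 was at least 182-fold lower there (7.51 on the log2 scale). The fitted values were -5.82 with normexp correction and -7.18 in the deposited normalized values. Both are smaller in size than that bound, so the bound holds for the main scaling alone. Ephb2 fell by 1.05 ± 0.26 (adjusted p = 0.0351), and Lrig1 rose by 1.17 ± 0.25 (adjusted p = 0.0229). Without WT large intestine replicate 2, WT large intestine replicate 3 or WT small intestine replicate 3 only Olfm4 passed, with adjusted p of 0.121, 0.115 and 0.112 for Lrig1 and 0.160, 0.143 and 0.162 for Ephb2. Without either KO large intestine array, Ephb2 did not pass either (0.0572). Centring on the epithelial markers also ended the Lrig1 call (1.04, adjusted p = 0.122), and median centring (adjusted p = 0.0557), no background filter (0.0547) and a fit of the compared groups alone (0.0566) ended that of Ephb2. The value for Lgr5 was -0.91 ± 0.27 (adjusted p = 0.0553).

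In KO pups 2 of the 10 passed between the segments, where 16.2% of all genes did (8.48% higher, 7.72% lower). Olfm4 fell by 2.03 ± 0.22 in KO large intestine (adjusted p = 0.00238), a fitted value against a group in which 1 of 2 arrays was well above background. Sox9 rose by 1.08 ± 0.26 (adjusted p = 0.0354). The Sox9 call was lost without KO small intestine replicate 2 (adjusted p = 0.110), KO large intestine replicate 2 (0.0839), KO large intestine replicate 3 (0.176) or either WT large intestine array (0.0703), with centring on the epithelial markers (0.25, adjusted p = 0.466), with no background filter (0.0573) and with the compared groups alone (0.0862). The KO arrays of Lgr5 overlapped between the segments (0.01 ± 0.27, adjusted p = 0.978).

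Ordered by group, Lgr5 was highest in WT small intestine, then WT large intestine, with the 2 KO groups last and overlapping. Olfm4 was highest in WT small intestine, then in KO small intestine, with no overlap. The order of KO and WT large intestine for Olfm4 was not measured, since 3 of these 4 spots were not well above background. For Ascl2 and Cdca7 both WT groups stood above both KO groups, while the KO groups of Ascl2 and the WT groups of Cdca7 overlapped. How many of all genes have both WT groups above both KO groups was not counted. Sox9 was highest in WT large intestine and lowest in KO small intestine, and WT small intestine between them overlapped with WT large and KO large intestine. Axin2 was highest in WT small and lowest in KO large intestine, with WT large and KO small intestine overlapping between them. For Lrig1 and Smoc2 KO small intestine came first and did not overlap with the group next in order.

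Related genes of the stem cell system were counted in lists. Of 16 further Wnt targets 1 fell in KO small intestine and none rose, with a median of -0.04. That gene was Rnf43, a ubiquitin ligase that removes Wnt receptors from the membrane, at 3.41 and 3.15 in KO small intestine against 6.08 and 7.76 in WT small intestine (-1.07 ± 0.22, adjusted p = 0.0393). The highest value in the list, 1.61, belonged to Nkd1, which did not pass. The Wnt targets thus spread to both sides of 0, and none passed in the large intestine.

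Of 18 other genes of the crypt base columnar signature 4 fell and 1 rose in KO small intestine, with a median of -0.38. Kcnq1, a potassium channel subunit, was at 0.959 and 1.17 in KO small intestine against 5.57 and 9.14 in WT small intestine, and fell by 2.75 ± 0.30 (adjusted p = 0.0122). Vdr, the vitamin D receptor, fell by 1.74 ± 0.31 (adjusted p = 0.0325). Nr2e3, a nuclear receptor, was at 1.72 and 0.145 in KO small intestine against 19.7 and 12.9 in WT small intestine (-4.995 ± 1.08, adjusted p = 0.0408). Fstl1, a secreted glycoprotein that mesenchyme also makes, rose by 1.22 ± 0.24 (adjusted p = 0.0362), beside the fibroblast markers above.

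Of 8 genes tied to reserve or regenerating stem cells 2 rose and none fell in KO small intestine, with a median of 1.20. Anxa1, an annexin, was at 18.4 and 44.2 in KO small intestine against 5.62 and 5.66 in WT small intestine, and rose by 2.34 ± 0.39 (adjusted p = 0.0298). Msln, mesothelin, rose by 1.64 ± 0.26 (adjusted p = 0.028), and it is also a defining gene of the mesothelium that covers the gut. Hopx and Bmi1, classical reserve stem cell markers, had values of -0.08 ± 0.33 (adjusted p = 0.897) and -0.01, both unpassed.

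The niche signals split by gene. Of 21 ligands and antagonists 5 rose and 2 fell in KO small intestine, with a median of 1.32, while in the large intestine none passed and the median was -0.52. Wnt3, the Wnt ligand of the epithelial niche, was at 0.0272 and 0.0344 in KO small intestine against 0.127 and 0.168 in WT small intestine, and fell by 2.25 ± 0.24 (adjusted p = 0.0122). Rspo2 and Rspo3, R-spondins made by stroma, rose by 1.64 ± 0.28 (adjusted p = 0.0313) and 2.16 ± 0.42 (adjusted p = 0.0361). Rspo3 was at 2.69 and 3.71 in KO small intestine against 1.002 and 0.499 in WT small intestine. That is the same array order as the smooth muscle sum, an order whose share over all genes was not counted. Ereg, a ligand of the epidermal growth factor receptor, rose by 2.78 ± 0.57 (adjusted p = 0.0388).

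Of 7 measured receptors for Wnt ligands and R-spondins 1 fell, Fzd5, a Frizzled receptor of the epithelium, by 1.37 ± 0.20 (adjusted p = 0.0244). It was at 0.205 and 0.169 in KO small intestine against 0.498 and 0.468 in WT small intestine. None of 6 ephrins and Eph receptors passed. None of 16 proliferation and DNA replication genes passed in either segment, with 13 below 0 and a median of -0.22 in the small intestine and all 16 above 0 with a median of 0.28 in the large intestine. In the fit of the difference between segments, no gene of these 7 lists passed.

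**Figure D5:**
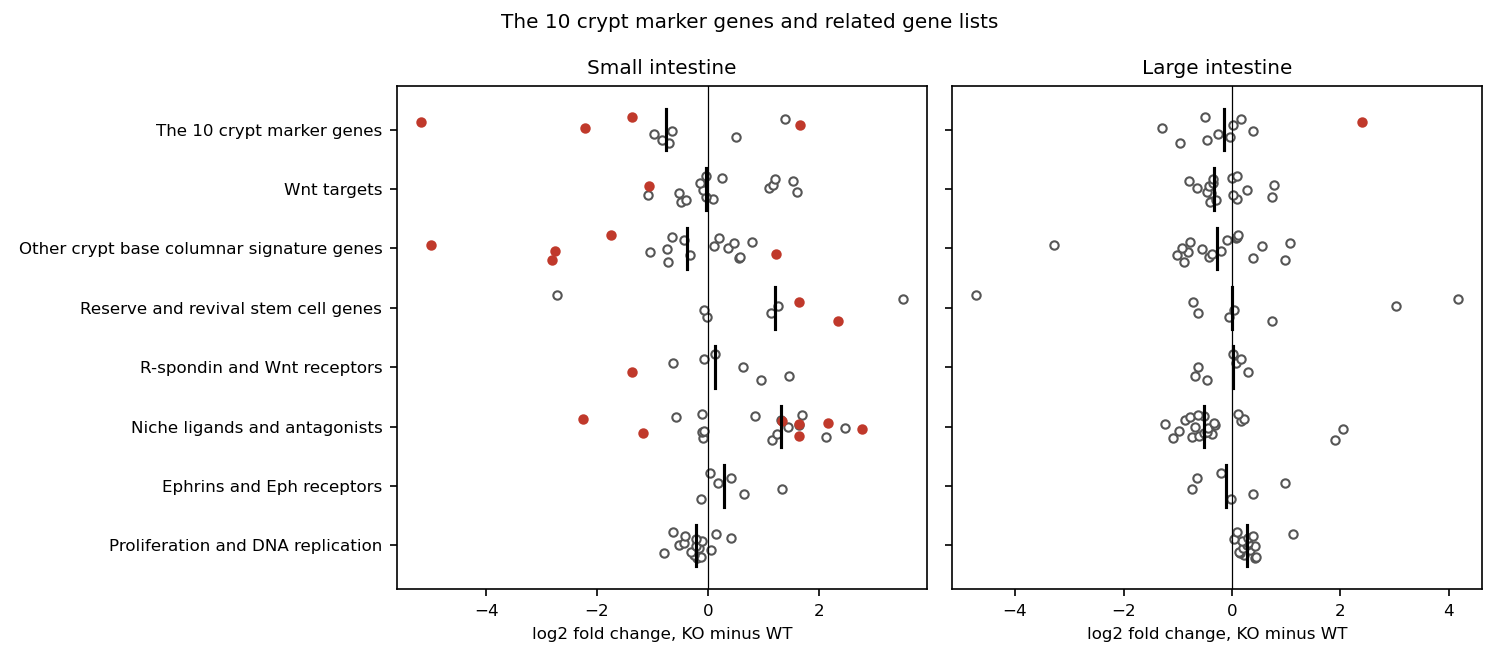
Log2 fold change, KO minus WT, of the 10 crypt marker genes and of 7 related gene lists in the small intestine (left) and the large intestine (right), with 1 point per gene, red filled points for an adjusted p under 0.05 and a bar at the list's median. In the small intestine the medians run from -0.76 for the 10 genes to 1.32 for the niche ligands and antagonists.

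The plot of related gene lists places the 10 genes beside the others. Their spread in the small intestine, from -5.17 to 1.65, was carried by Olfm4 and Lgr5 at the low end and by Lrig1 and Smoc2 at the high end.

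Genes whose profile over the 8 arrays was nearest to that of Lgr5 were ranked by the root mean square difference of centred log2 values. The difference was taken for 19773 genes, and clone and predicted-locus names were then passed over. The ranks below hold among the names left. Dach2, a transcription cofactor, came first at 0.319, at 0.0364 and 0.0326 in KO small intestine against 0.0903 and 0.198 in WT small intestine. Nobox (0.346, well above background on 2 of 8 arrays) and Tmem45a2 (0.347, on 4 of 8) came next, followed by the transcription factors Bcl11b (0.350) and Cebpa (0.353). The nearest of the other 9 crypt genes was Axin2, at 0.574. For Olfm4 the nearest were Cps1, a urea cycle enzyme (1.34), Hnf4aos (1.43), G6pc (1.44), Vwce (1.48) and Dcpp3 (1.55, above background on 4 of 8 arrays), all further from it than the genes near Lgr5 were from Lgr5. The nearest crypt gene to Olfm4 was Lgr5, at 3.17. Olfm4 itself was well above background on neither WT large intestine array and on 1 KO large intestine array. Its distances to other genes thus rest in part on signals near background.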

How the data were processed

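Total RNA from 8 samples was labelled with Cy3 and hybridised to Agilent mouse arrays, per the labels' protocols. The intensity values used are the deposited processed spot signals of Feature Extraction 10.7.3.1, already background-subtracted, per the file headers, which also give positions on mm9. The submitters' processing notes name R 3.3.0. The authors' deposited normalized table was an alternative only, and its scale and centring are not stated.

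From there, control spots and outlier-flagged spots were dropped, each signal was divided by its array's 75th percentile, log2 values were taken, and repeat spots were averaged. Probes had to be called above background by the scanner software on the 2 arrays of 1 group or more, and each gene was read by its brightest probe. Names came from the file's accession for 26050 probes, from a current symbol for 3205, from an older symbol for 930 and from the file alone for 2099, through RefSeq gene names. Tests used limma 3.58.1 in R 4.3.3 on 4 group means over 8 arrays (4 residual degrees of freedom), or on genotype plus segment (5), with Benjamini-Hochberg adjustment. The fit was tested on simulated data. All arrays came from 1 slide and 1 scan date, and the 4 groups lay in separate slide columns, an effect of which cannot be told apart from the group.

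The 10 genes and the lists were chosen with earlier results of these data known. Besides the 10 genes and Cldn7, the text names up to 4 passing genes per list with the smallest p. It also names the first 2 of each marker list and the 5 nearest profiles to Lgr5 and Olfm4. For these profiles clone and predicted-locus names were passed over. Named outside that rule, after their values were seen, were the array checks, Nkd1, Hopx, Bmi1, Ly6a and the further Cd44 probes. Some genes that this rule names are not reported here. Exons and UTRs of the probes were not looked up, since no mm9 annotation was used. Alternatives covered background correction, scaling, filters, probe choice, priors, blocks and arrays left out.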

Additional observations from a re-analysis of the deposited data

Results flagged for a closer look

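The knockout effect on Olfm4 differed between the segments by 7.56 on the log2 scale (large minus small intestine, standard error 0.32, adjusted p = 0.00181 for the difference itself in limma). The KO minus WT value was 2.39 in the large intestine and -5.17 in the small intestine. Olfm4 was well above background on neither WT large intestine array and on 1 of 2 KO large intestine arrays. No fold could thus be bounded in the large intestine, and a fall from WT could not have been read there. A value above 0 for the difference therefore does not show that the knockout acts differently in the segments. With normexp correction the difference was 4.91. Without KO large intestine replicate 3 and WT large intestine replicate 2, the arrays with pancreatic transcripts, the difference was 7.67 and did not pass (adjusted p = 0.0552).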

How the results depend on the processing

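Counts of the 10 genes that passed moved as follows. KO minus WT in the small intestine gave 4, but 2 with epithelial marker centring, 1 with the compared groups alone, and 1 to 5 with arrays left out. In the large intestine it gave 1, but 0 with normexp correction, epithelial centring, the deposited table, a filter for signal on all 8 arrays (which removes Olfm4) or the replicate block, and 0 to 1 with arrays left out. Over both segments it gave 1, but 0 with no background filter or the replicate block, 3 with the animal as a block (Lgr5, Ascl2 and Sox9), and 0 with any array left out. The difference between segments gave 1, but 0 with the all-array filter and 0 to 1 with arrays left out. Between segments, WT pups gave 3, and 1 to 4 with arrays left out, and KO pups gave 2, but 6 with epithelial centring, 1 with no filter, 1 with the compared groups alone, and 0 to 3 with arrays left out. Signs turned only for values that had not passed. KO minus WT in the large intestine turned for Lrig1 (0.02) to -0.00096 with normexp, -0.11 with quantile, -0.39 with epithelial centring, -0.16 in the deposited table and -0.046 to 0.12 with arrays left out; for Ephb2 to -0.023 with epithelial centring; for Cd44 (-0.03) to 0.12 with median centring, 1.04 with the mean of its probes and -0.19 to 0.13 with arrays left out; and for Smoc2 (0.16) to -0.0053 with quantile, -0.25 with epithelial centring and -0.0025 in the deposited table. Over both segments Ephb2 ran from -0.32 to 0.10 with arrays left out. The difference between segments turned for Axin2 (0.37) to -0.33 with epithelial centring and -0.075 with the mean of its probes, and for Ascl2 (-0.26) it ran from -0.64 to 0.29 with arrays left out. Between segments in WT pups, Cdca7 turned to -0.015 with normexp, -0.13 with epithelial centring and ran from -0.12 to 0.12 with arrays left out, Smoc2 (-0.05) turned to 0.11 with quantile and 0.12 in the deposited table and ran from -0.46 to 0.36, and Sox9 (0.20) ran from -0.057 to 0.46. In KO pups Lgr5 (0.01) turned to -0.81 with epithelial centring and ran from -0.17 to 0.26. Ascl2 (0.09) turned to -0.74 with epithelial centring and -0.018 in the deposited table and ran from -0.30 to 0.63. Ephb2 (-0.02) turned to 0.088 with quantile, 0.13 with median centring and 0.079 in the deposited table and ran from -0.20 to 0.16. Cd44 turned to 0.030 with the mean of its probes and Cdca7 to -0.12 with epithelial centring. The cause was not tested. Over single results of the 10 genes and of the Cd44 probes fitted on their own, 1406 alternatives kept direction and side of the threshold. Another 87 lost the call, 29 gained it and 48 turned. The brightest Cd44 probe enters these totals both as the gene and as a probe.

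Over all genes, 1295 rose and 694 fell in KO small intestine, but 311 and 170 with epithelial centring, 272 and 209 with no filter, 699 and 523 with the replicate block, 656 and 394 with every probe on its own, 2143 and 643 with median centring, and 15 and 20 with the compared groups alone. Large intestine counts of 33 and 29 were 5 and 10 with the replicate block, 9 and 10 with no filter, 65 and 37 with median centring, 20 and 12 with the all-array filter, and 59 and 65 alone. Over both segments 61 and 35 became 328 and 364 with the animal block, 138 and 47 with median centring, 16 and 13 with epithelial centring and 34 and 16 with no filter. The animal block takes same-numbered samples of a genotype as 1 animal, which the labels do not state. Its standard error for Lgr5 over both segments was 0.195, against 0.252 without it. Why it was smaller was not tested, so the calls gained with this block are not firmer. Between segments in KO pups 1676 and 1527 became 702 and 7614 with epithelial centring, which moved the median of all genes by -0.85. That centring also put the median of all genes at 0.19 in the small and -0.41 in the large intestine. Same-numbered samples of different groups had deviations that correlated between 0.0081 and 0.264 across genes, and with 2 numbers the labels do not show that they are paired.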

Other observations

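Ly6a, a surface protein of regenerating epithelium and of some other cells, was chosen here after its values were seen. Its relative signal was 1.91 and 4.11 in KO small intestine against 1.57 and 0.882 in WT small intestine, and 45.3 and 76.7 in KO large intestine against 7.37 and 7.13 in WT large intestine. All KO arrays lay above the WT arrays of their segment. KO and WT did not overlap for 59.4% of all genes in the small intestine (26.8% higher in KO). In the large intestine that share was 55.1% (27.9% higher in KO). The large intestine value was 3.02 ± 0.46 (limma, adjusted p = 0.0772) and that over both segments 2.14 ± 0.45 (adjusted p = 0.0906), and neither passed. Of the 8 genes tied to reserve or regenerating stem cells, among them Ly6a, 4 lay above 0 in the large intestine and 4 below. They ran from -4.72 to 4.17 there, and none passed. Over both segments 5 lay above 0 and 3 below, from -3.72 to 3.84.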
